A study of Mus musculus with 18 samples.

Results

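This account sets 3 libraries of ACLYKO Th17 cultures given acetate (ACLYKO + acetate) against 3 libraries of WT cultures without it, 6 of the 18 libraries in the series, and asks which genes acetate left at, short of or past the level of untreated WT. Th17 cells are helper T cells that make interleukin-17, and these were grown in vitro from naive T cells with anti-CD3/CD28 and polarizing cytokines. ACLYKO cells were Acly-fl/fl Cd4-cre, so that Cre expressed from the Cd4 promoter deletes Acly in T cells, and the WT cells are labelled wild type, with nothing said of Cre. Acetate was added after 48 h of polarization for another 24 h, at 20 mM per the sample protocols and at 10 mM per the series text, and all cultures were then restimulated with PMA and ionomycin for 5 h in the presence of brefeldin A and monensin. Untreated ACLYKO cultures (3 libraries) show where each gene stood without acetate, and WT cultures given acetate (3 libraries) are quoted beside some genes. ACLYKO + acetate is also set against GLUT3KO cultures (Slc2a3-fl/fl Cd4-cre) given acetate (GLUT3KO + acetate, 3 libraries). The comparison changes genotype and acetate together, so what belongs to each cannot be told apart from these 6 libraries alone. The labelled strain of the ACLYKO + acetate libraries reads C57BL/9, C57BL/11 and C57BL/6, with other numbers in the untreated ACLYKO libraries, while every WT library reads C57BL/6. The GLUT3KO + acetate libraries read C57BL/6, C57BL/6 and C57BL/7.

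ATP citrate lyase, the product of Acly, splits citrate in the cytosol into acetyl-CoA and oxaloacetate. Cytosolic and nuclear acetyl-CoA feeds the synthesis of fatty acids and sterols and is the acetyl donor for histone acetylation. Cells can also make it from acetate through the acetyl-CoA synthetase ACSS2, which does not need ATP citrate lyase, while ACSS1 does the same in mitochondria.

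Genes with a TPM (a transcript level scaled to gene length and to a fixed library total) of at least 1 in at least 3 of the 18 libraries were kept, which left 14229 of 45703 genes. Of the genes next to this limit, 308 reached it in exactly 3 libraries, with a median third-highest value of 1.12 TPM, and 351 reached it in exactly 2, with a median of 0.871 TPM. Levels below are TPM and differences are on the log2(TPM + 1) scale, which understates the change of low genes, with their SE. Means of TPM are given ± SD of the 3 libraries. The libraries held 18.7 to 30.1 M gene-assigned reads, and 1 read on a gene of 2000 bases is worth 0.0342 to 0.0719 TPM. The T cell genes Cd3e (185, 128 and 148 TPM in ACLYKO + acetate against 152, 134 and 135 TPM in WT) and Trac were high in both groups, while the B cell gene Ms4a1 and the myeloid genes Lyz2 and Csf1r stood at no more than 0.185 TPM. Of 9 CD4 T cell markers 3 (Cd3g, Cd4 and Thy1) were called higher in ACLYKO + acetate than in WT, against 15.7% of all tested genes. The count was 1 to 4 over all alternatives, and of 19 alternatives Thy1 lost its call in 10 and Cd4 in 8. In the main fit no marker was lower than in WT, and 5 were higher than in untreated ACLYKO. The list summed to 3779 to 4347 TPM in ACLYKO + acetate, 2370 to 2900 TPM in untreated ACLYKO and 3254 to 3569 TPM in WT. One untreated ACLYKO library, replicate 1, stood apart: along the first axis of the within-group variation (63.6% of that variance) it scored 0.67, against -0.40 to 0.27 for all other libraries. That library does not enter the main difference itself, but it enters every statement on where a gene stood without acetate. All 18 libraries share 1 estimate of the spread, so it also enters the SE and p-values of the main difference. Replicate 1 of WT (0.27) and of ACLYKO + acetate (0.22) lay on the same side of this axis. Gene weights on the axis correlated with GC content (Spearman -0.41) and exon length (0.35).

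Acly itself (GeneID 104112, chromosome 11, 100476352 to 100528000, GRCm38.p6) read 11, 12.8 and 11.7 TPM in ACLYKO + acetate, 7.01, 14.4 and 12.6 TPM in untreated ACLYKO and 400.3, 395 and 392 TPM in WT. Both ACLYKO groups lay far below WT in every library, and the acetate difference was not called (0.11 ± 0.22, limma adjusted p = 0.752). The values are totals per gene, which hold reads from exons outside the deletion as well.

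ACLYKO + acetate differed from untreated WT at 2727 genes, 19.2% of those tested (limma, Benjamini-Hochberg adjusted p under 0.05). Of these 2236 (15.7% of tested genes) were higher and 491 (3.45%) were lower in ACLYKO + acetate, and 1191 had a log2 difference of 1 or more in either direction. The libraries of the 2 groups did not overlap at 5293 genes (37.2%), of which 3892 (27.4%) were higher and 1401 (9.85%) were lower in ACLYKO + acetate. The median difference of all tested genes was 0.10, and the split moved with it: 1964 higher and 850 lower with median-ratio scaling, 1599 and 1237 with quantile normalization, and 1864 and 1629 with a correction for GC content and exon length. With the replicate number as a block 6224 genes passed, 4349 of them higher. The labels do not tie replicates to separate mice or cultures. The p-values therefore cover only the variation among these libraries, and that may be technical.

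Each gene was placed by 3 calls, untreated ACLYKO against WT (2715 genes, 19.1% of those tested), ACLYKO with against without acetate (2458 genes, 17.3%) and ACLYKO + acetate against WT. Of the 2715 genes off the WT level without acetate, 617 (22.7%, or 4.34% of tested genes) returned, meaning that acetate moved them the other way and the 95% interval of their remaining difference from WT lay within 1 on the log2 scale. Another 130 (0.914% of tested genes) moved back but stayed short of WT, and 79 (0.555%) moved past it. For 975 (35.9%, or 6.85% of tested genes) the difference from WT was still called and no acetate change was, and 123 (0.864%) moved further away. Outside these, 862 genes (6.06%) for which untreated ACLYKO was not called different from WT moved off the WT level with acetate. The last 791 (5.56%) could not be placed, and because the 3 calls share libraries the counts are a description with no test of their own. They also lean on untreated ACLYKO replicate 1, without which 824 genes returned, 222 stayed short, 145 moved past and 1577 kept their difference with no acetate change called.

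**Figure D1:**
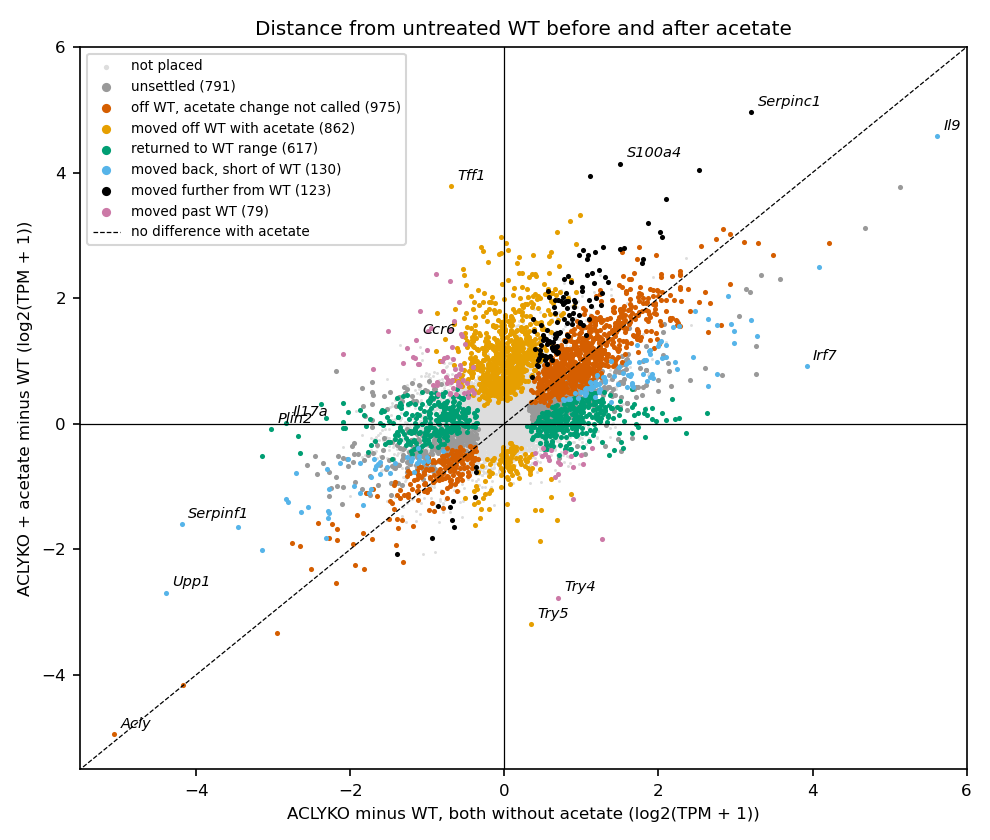
Difference of ACLYKO + acetate from WT (vertical, log2(TPM + 1)) against that of untreated ACLYKO from WT (horizontal) for 14229 genes, coloured by place, where points on the dashed line have the same distance from WT with and without acetate. Il17a and Plin2 lie near 0 on the vertical axis, Upp1 and Serpinf1 between it and the dashed line, Acly on the line, and Tff1 and Try5 near 0 on the horizontal axis only. Both axes share the WT libraries.

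The 2 interleukin-17 genes, which lie side by side on chromosome 1, ended apart. Il17a (chromosome 1, 20730905 to 20734496) read 544, 662 and 744 TPM in ACLYKO + acetate, 38.2, 117 and 156 TPM in untreated ACLYKO and 613, 599 and 703 TPM in WT. With acetate its libraries overlapped those of WT (difference 0.018 ± 0.39, limma adjusted p = 0.989, 95% interval -0.82 to 0.85), and without acetate they lay below (difference -2.83 ± 0.39, limma adjusted p = 1.70e-04). The interval passed 1 without ACLYKO + acetate replicate 1 (upper end 1.10), without WT replicate 3 (1.06) and, at its lower end, without ACLYKO + acetate replicate 3 (-1.05). WT cultures given acetate stood higher than all of these, at 2111, 1458 and 1807 TPM.

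Il17f (chromosome 1, 20777146 to 20785274) read 293, 299 and 354 TPM in ACLYKO + acetate, 425, 195 and 249 TPM in untreated ACLYKO and 867, 669.9 and 749.8 TPM in WT. Every ACLYKO + acetate library lay below every WT library (-1.27 ± 0.22, limma adjusted p = 8.47e-04), and the acetate change was not called (0.19 ± 0.22, limma adjusted p = 0.583) unless ACLYKO replicate 1 was left out (limma adjusted p = 0.0309). Of the other cytokine genes often read in Th17 cells, Il21 (1308 ± 86.2 TPM in ACLYKO + acetate and 1171 ± 471 TPM in WT, limma adjusted p = 0.575), Il22 (0.857 ± 0.434 and 1.08 ± 0.727 TPM, limma adjusted p = 0.893) and Csf2, which encodes GM-CSF (223 ± 74.4 and 343 ± 77.1 TPM, limma adjusted p = 0.128), were not called. Without WT replicate 1 Il21 was called higher (limma adjusted p = 0.0257).

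**Figure D2:**
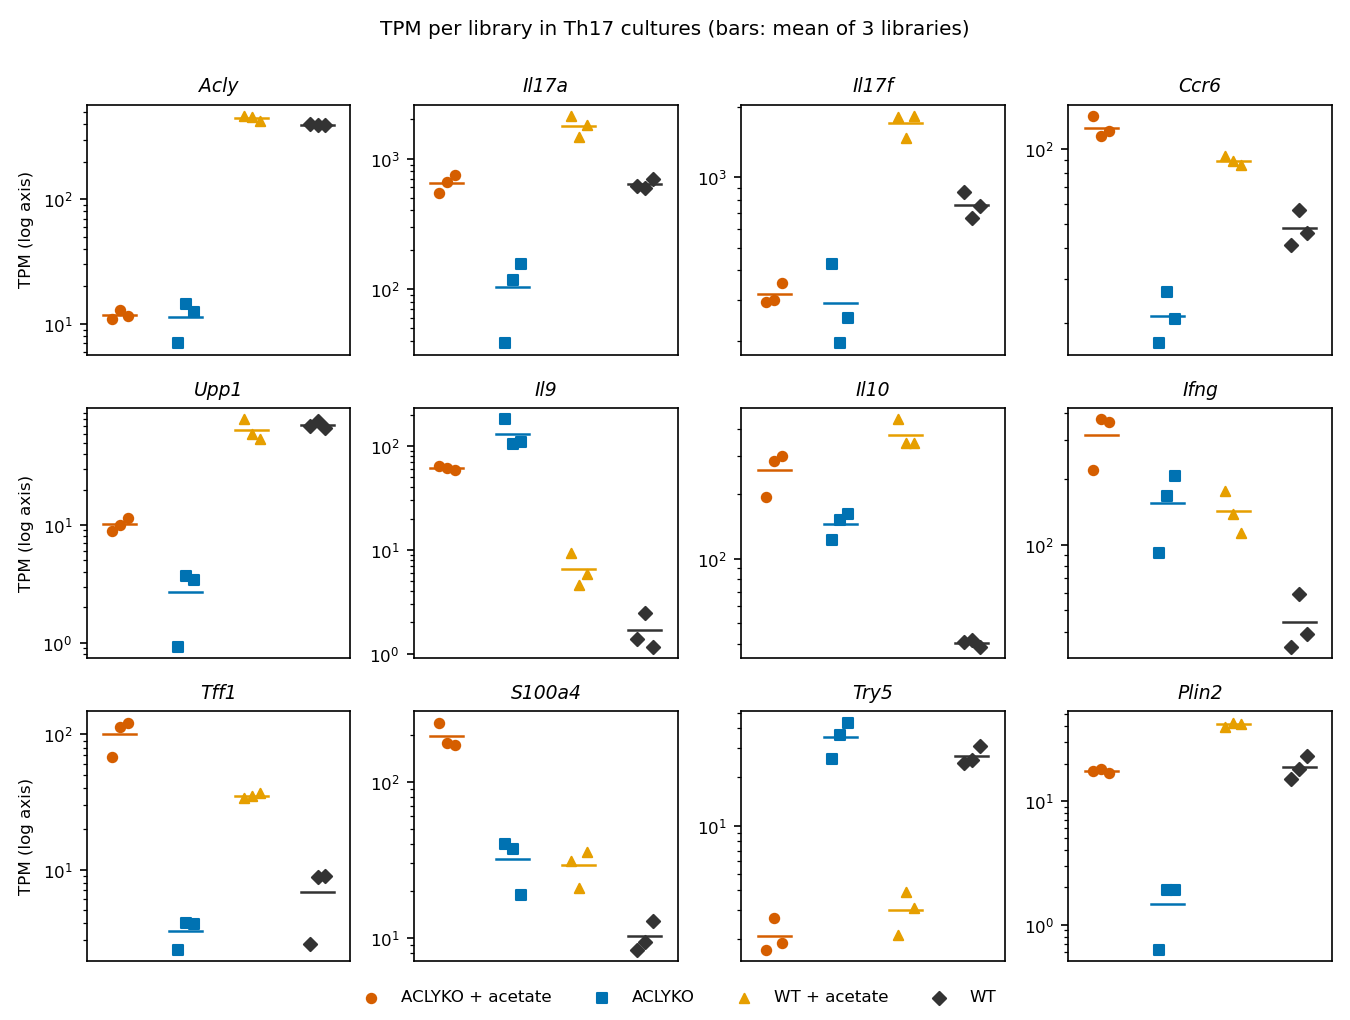
TPM per library (log axis) of 12 genes in ACLYKO + acetate, untreated ACLYKO, WT + acetate and WT, 3 points and a bar at the mean for each group. Il17a and Plin2 overlap WT in ACLYKO + acetate, Acly, Il17f and Upp1 lie below it, and Il9, Il10, Ifng, Tff1 and S100a4 lie above it.

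Among 22 Th17 lineage genes, all tested, 10 rose in ACLYKO + acetate relative to WT and 4 fell, with a median difference of 0.54. Of all tested genes 15.7% rose and 3.45% fell. Ccr6, the chemokine receptor of Th17 cells, moved past WT, with 135, 112 and 118 TPM in ACLYKO + acetate, 16.5, 26.5 and 20.8 TPM in untreated ACLYKO and 41.2, 56.8 and 45.8 TPM in WT (1.34 ± 0.18, limma adjusted p = 8.88e-05). The 3 groups did not overlap. Il23r, a chain of the interleukin-23 receptor, moved back but stayed short, at 3.14, 3.62 and 4.33 TPM in ACLYKO + acetate, 1.69, 1.65 and 1.75 TPM in untreated ACLYKO and 11.6, 11.6 and 13.4 TPM in WT (-1.50 ± 0.15, limma adjusted p = 7.57e-06). Il1r1, the interleukin-1 receptor, moved off the WT level (difference 1.41, limma adjusted p = 1.03e-05). Ahr, the aryl hydrocarbon receptor, moved further away (2.73, limma adjusted p = 9.76e-08). Maf, a transcription factor that drives Il10 and Il21 in helper T cells, stayed below WT at 14.2 ± 4.88 TPM in ACLYKO + acetate, 9.96 ± 3.28 TPM in untreated ACLYKO and 39.4 ± 5.64 TPM in WT.

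Several cytokine genes of other helper subsets were well above WT. Of 29 cytokine and chemokine genes 16 rose in ACLYKO + acetate relative to WT and 4 fell (median difference 0.94), against 15.7% and 3.45% of all tested genes. The 4 were 2 without ACLYKO + acetate replicate 1 or without WT replicate 2. Il9, the cytokine of Th9 cells and mast cell growth, read 64.6, 62.1 and 59.1 TPM in ACLYKO + acetate, 181, 104 and 111 TPM in untreated ACLYKO and 1.37, 2.49 and 1.17 TPM in WT. It moved down with acetate and yet stayed above every WT library (4.59 ± 0.25, limma adjusted p = 5.43e-08). With the replicate block its acetate change was not called (limma adjusted p = 0.052).

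Ifng, the signature cytokine of Th1 cells, read 218, 372 and 363 TPM in ACLYKO + acetate, 91.5, 166 and 206 TPM in untreated ACLYKO and 34.2, 59.4 and 38.9 TPM in WT (2.82 ± 0.37, limma adjusted p = 6.97e-05). Its acetate change missed the threshold (limma adjusted p = 0.0574) and passed it with the block (0.0284), without ACLYKO + acetate replicate 1 (0.0384) and without ACLYKO replicate 3 (0.0309). Il10, which encodes the anti-inflammatory interleukin-10, read 193, 285 and 299 TPM in ACLYKO + acetate, 123, 150.3 and 162 TPM in untreated ACLYKO and 41, 42.1 and 39 TPM in WT (2.62 ± 0.25, limma adjusted p = 5.67e-06). All 3 groups were apart, although the step with acetate (limma adjusted p = 0.0358) was not called without ACLYKO replicate 1 or 2 or without ACLYKO + acetate replicate 2 or 3 (0.0529 to 0.141). Il2, the T cell growth factor, was higher than in WT in both ACLYKO groups, at 13639 ± 4959 TPM in ACLYKO + acetate, 13289.7 ± 5778 TPM in untreated ACLYKO and 5412 ± 1233 TPM in WT. Its difference from WT (1.28 ± 0.32, limma adjusted p = 0.0096) was not called when only the groups compared were fitted (limma adjusted p = 0.0553), and with the block untreated ACLYKO was not called different from WT.

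Il13, a Th2 cytokine, moved past WT, with 12.5, 20.8 and 18.1 TPM in ACLYKO + acetate, 0.922, 3.26 and 3.0 TPM in untreated ACLYKO and 6.53, 6.93 and 6.6 TPM in WT (1.21 ± 0.28, limma adjusted p = 0.00654). Lta, lymphotoxin alpha, moved off the WT level (further from it without ACLYKO replicate 1), at 730.1 ± 42 TPM in ACLYKO + acetate, 201 ± 76.7 TPM in untreated ACLYKO and 143 ± 16.5 TPM in WT. Ccl3, a chemokine for macrophages and T cells, and Fasl, the death ligand, rose by 1.97 and 2.36 relative to WT. Cxcl3, a neutrophil chemokine, moved back but stayed short (32.3 ± 6.0 TPM in ACLYKO + acetate, 9.16 ± 4.36 TPM in untreated ACLYKO and 102 ± 6.1 TPM in WT). The growth factor gene Areg returned, with 1.61, 1.82 and 1.53 TPM in ACLYKO + acetate, 25, 9.93 and 10.8 TPM in untreated ACLYKO and 2.78, 1.05 and 2.22 TPM in WT, although without WT replicate 2 its interval reached -1.05.

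Of 14 tested genes of Th1 and cytotoxic cells, 11 rose in ACLYKO + acetate relative to WT (15.7% of all tested genes did). Their median difference was 2.30 against 0.10 over all genes. Tbx21 (T-bet, the master factor of Th1 cells) read 25.8, 20.8 and 23.8 TPM in ACLYKO + acetate, 1.6, 3.42 and 3.54 TPM in untreated ACLYKO and 4.46, 3.84 and 4.6 TPM in WT (2.2 ± 0.25, limma adjusted p = 2.24e-05). The acetate group lay above both others, as it did for Cxcr3, a Th1 chemokine receptor (25.1 ± 7.1 TPM in ACLYKO + acetate, 2.93 ± 1.34 TPM in untreated ACLYKO and 3.12 ± 1.74 TPM in WT). In WT cultures given acetate Tbx21 read 17.8, 17.5 and 22.3 TPM and Cxcr3 14.2, 15.3 and 15 TPM. Il18rap, a chain of the interleukin-18 receptor, rose in steps, with 27.6, 24.4 and 30.3 TPM in ACLYKO + acetate, 12.4, 9.6 and 9.14 TPM in untreated ACLYKO and 1.75, 2.16 and 2.43 TPM in WT (3.19 ± 0.20, limma adjusted p = 1.18e-07). Gzmc, a granzyme, overlapped between the ACLYKO groups and lay above WT in both (57.1, 84.1 and 64.4 TPM in ACLYKO + acetate, 48.3, 65.5 and 65.4 TPM in untreated ACLYKO and 11.8, 7.94 and 5.2 TPM in WT). Il12rb2, a chain of the interleukin-12 receptor, was the 1 gene that fell (-1.11), which was not called without WT replicate 1 (limma adjusted p = 0.0527). Of 7 genes of NK and gamma-delta T cells 3 were tested and 2 were higher, and the list summed to 12.5 to 16.0 TPM in ACLYKO + acetate, 13.7 to 23.2 TPM in untreated ACLYKO and 2.77 to 4.54 TPM in WT. Most of it was Trdc, the constant segment of the delta chain (8.74, 12.6 and 10.5 TPM against 3.39, 2.47 and 1.99 TPM in WT). The other gene called higher was the NK receptor gene Klre1 (1.10, limma adjusted p = 0.0302), a call lost in 7 of 18 alternatives. The NK receptors Ncr1 and Klrb1c stayed at or under 0.104 TPM in ACLYKO + acetate and WT. The part of such cells in the Th1 and cytotoxic genes was not tested.

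Genes of the type I interferon response mostly moved back toward WT with acetate. They are switched on by interferon through a complex that holds STAT2 and IRF9 and binds the interferon-stimulated response element, and many of their products sense or block viral RNA. Of 30 members 24 were tested, and 21 of the 24 were higher in untreated ACLYKO than in WT (12.7% of all tested genes were), with a median difference of 1.72. With acetate 15 of the 24 moved down relative to untreated ACLYKO (5.6% of all tested genes did). Then 10 were higher than WT (15.7% of all tested genes were), and the median difference was 0.68. Over all alternatives 11 to 23 were higher in untreated ACLYKO, 7 to 19 moved down and 9 to 16 were higher than WT with acetate. The filter of 5 TPM, 1 of these alternatives, tests fewer members. Members such as Ifit1 and Rsad2 reached 1 TPM, among the 3 groups, only in untreated ACLYKO. Where a member passes the filter of 1 TPM only through that group, its higher level and its move down are all but fixed. These counts include such members and are a description only. By place, 8 returned, 5 stayed short, 4 kept their difference with no acetate change called and 4 could not be placed. Ifnb1, which encodes interferon beta and was chosen after its values were seen, was listed at 0, 0.0959 and 0 TPM in ACLYKO + acetate, 2.41, 3.11 and 3.31 TPM in untreated ACLYKO and 0 TPM in each WT library.

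Ifit1, whose product binds viral RNA, read 0.222, 0.224 and 0.132 TPM in ACLYKO + acetate, 4.87, 4.44 and 3.55 TPM in untreated ACLYKO and 0.19, 0.172 and 0.0539 TPM in WT. The acetate group overlapped WT and lay far below untreated ACLYKO (-2.14 ± 0.11, limma adjusted p = 5.54e-08), and Oasl2, an antiviral gene, did the same (acetate difference -1.85). Rsad2, which encodes viperin, moved back too (acetate difference -1.71) but kept every library just above WT (0.103, 0.156 and 0.122 TPM in ACLYKO + acetate, 3.53, 2.46 and 2.19 TPM in untreated ACLYKO and 0.033, 0.024 and 0 TPM in WT). With voom on recovered reads Rsad2 stayed short, and the intervals of Ifit1 and Oasl2 passed 1, as did those of Rsad2 and Oasl2 with a pseudocount of 0.1. Irf7, the factor that amplifies interferon production, stayed short, with 0.757, 1.6 and 0.779 TPM in ACLYKO + acetate, 9.71, 21.1 and 16.8 TPM in untreated ACLYKO and 0.0646, 0.047 and 0.0735 TPM in WT (0.92 ± 0.22, limma adjusted p = 0.00678). Its libraries with acetate all lay above WT, although a difference this near 0 TPM is small on the log2(TPM + 1) scale. Of all 617 returned genes 69 were under 1 TPM on average in both ACLYKO + acetate and WT, where this scale can hide a fold difference.

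Zbp1, a sensor of left-handed nucleic acids, also stayed short, at 15.4, 19.3 and 14.5 TPM in ACLYKO + acetate, 33.9, 32.7 and 31.9 TPM in untreated ACLYKO and 4.89, 3.8 and 4.59 TPM in WT (1.68 ± 0.16, limma adjusted p = 4.68e-06). Ifih1, which encodes the double-stranded RNA sensor MDA5, stayed well above WT (43.4 ± 5.04 TPM in ACLYKO + acetate, 80.2 ± 12.2 TPM in untreated ACLYKO and 9.91 ± 1.91 TPM in WT). Its fall with acetate (limma adjusted p = 0.0276) was not called without ACLYKO replicate 1 (0.0695) or without ACLYKO + acetate replicate 2 (0.089) or 3 (0.0909). Isg15, a ubiquitin-like modifier, varied widely, at 10.1, 66.4 and 42.6 TPM in ACLYKO + acetate, 23.9, 132 and 154 TPM in untreated ACLYKO and 1.98, 3.84 and 4.61 TPM in WT (2.88 ± 0.66, limma adjusted p = 0.00609). Every ACLYKO + acetate library was above every WT library, and in both ACLYKO groups replicate 1 was the lowest. Its acetate change (-1.32) was called only without ACLYKO replicate 1 among the fits leaving out 1 library (limma adjusted p = 0.0147).

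The p200 family, DNA sensors that are themselves induced by interferon and sit in a cluster on chromosome 1, went the same way. Of 9 tested members 7 were higher in untreated ACLYKO than in WT and 7 moved down with acetate (4 without ACLYKO + acetate replicate 3 and 2 with the replicate block), and 4 were higher than WT with acetate. The shares of all tested genes were 12.7%, 5.6% and 15.7% in this order. Ifi211 read 7.81, 8.13 and 6.26 TPM in ACLYKO + acetate, 64.1, 15.4 and 14 TPM in untreated ACLYKO and 0.779, 0.283 and 0.443 TPM in WT (2.49 ± 0.40, limma adjusted p = 4.44e-04). Replicate 1 of untreated ACLYKO was the highest for this gene and the lowest for Isg15, and with the block its acetate change was not called (limma adjusted p = 0.0626). Members of this family resemble each other in sequence, so reads shared between them make single values uncertain. The 4 were 2 without any 1 of ACLYKO + acetate replicate 1, ACLYKO + acetate replicate 3 and the 3 WT libraries, and with median-ratio scaling or quantile normalization.

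**Figure D3:**
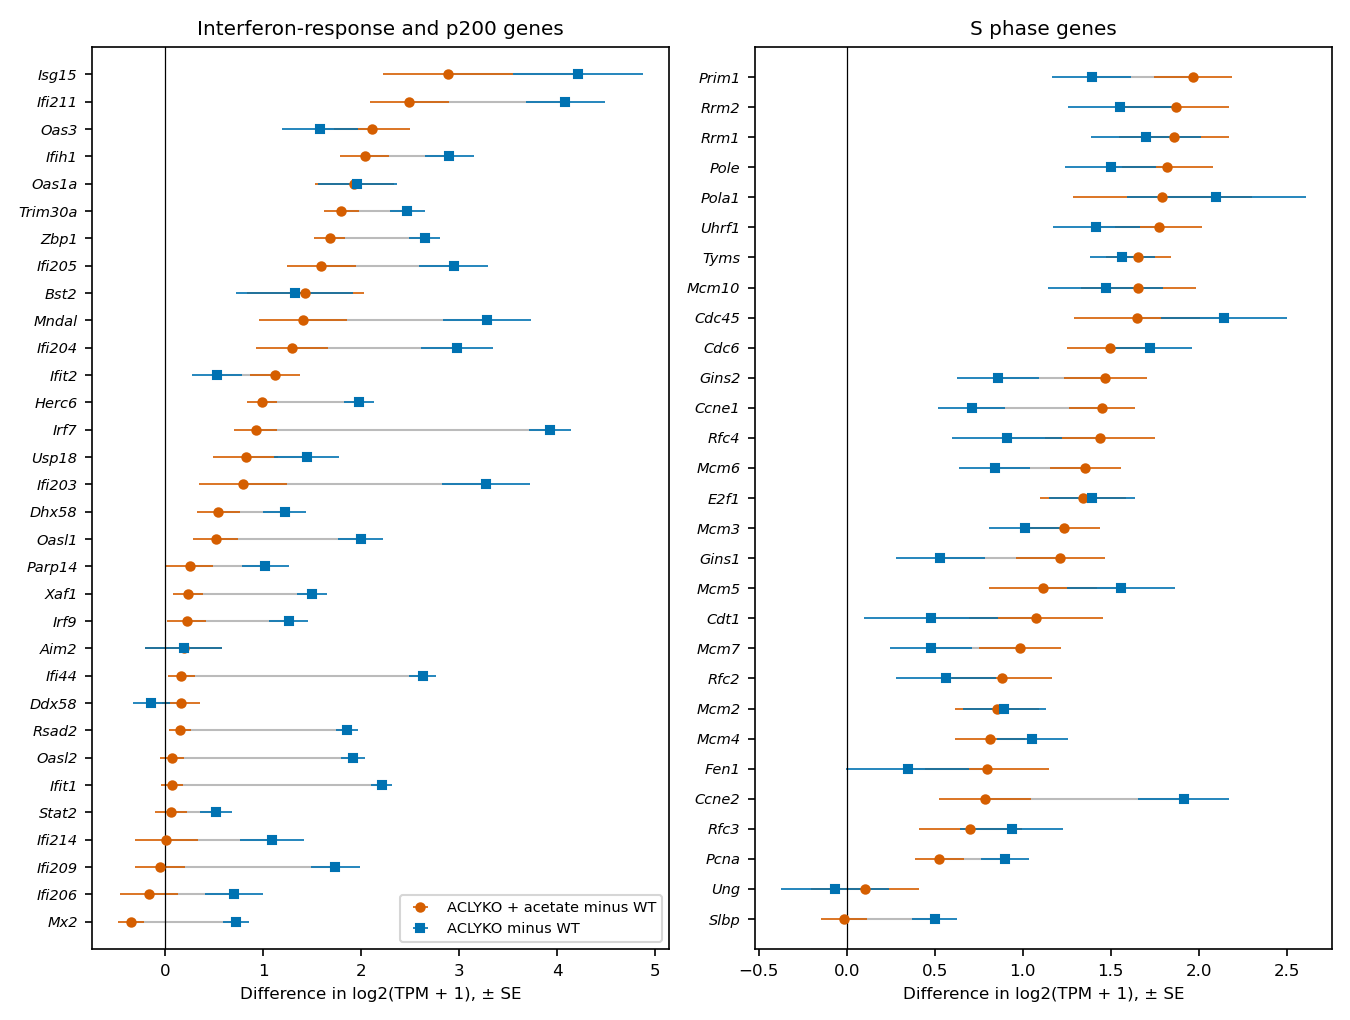
Difference from WT in log2(TPM + 1), ± SE, of ACLYKO + acetate (circles) and untreated ACLYKO (squares) for 32 interferon-response and p200 genes (left) and 29 S phase genes (right). On the left most circles lie closer to 0 than their squares, Ifit1 and Rsad2 near 0 and Isg15 and Ifih1 above it, and on the right most circles and squares lie above 0, many with overlapping error bars.

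Promoters of these genes show what they share in sequence. RefSeq promoter windows (GRCm38.p6, from 250 bases before to 50 after the start) were found for 18 of the 24 tested interferon-response genes, and 10 of the 18 (55.6%) held GAAA followed, after any 2 bases, by GAAA, the core letters of the interferon-stimulated response element, on either strand. The share was 75.0% for 6 of 8 p200 genes and 3.85% over 9360 tested genes with a window. Windows of a returned pair, Ifit1 and Rsad2, of Ifih1, which stayed short, and of Isg15, whose acetate change was not called, are given here 5′ to 3′ on the gene's strand with these letters in capitals, and matches may overlap. They were chosen from the windows with a match.
Ifit1 (returned), chr19:34640639-34640938, + strand: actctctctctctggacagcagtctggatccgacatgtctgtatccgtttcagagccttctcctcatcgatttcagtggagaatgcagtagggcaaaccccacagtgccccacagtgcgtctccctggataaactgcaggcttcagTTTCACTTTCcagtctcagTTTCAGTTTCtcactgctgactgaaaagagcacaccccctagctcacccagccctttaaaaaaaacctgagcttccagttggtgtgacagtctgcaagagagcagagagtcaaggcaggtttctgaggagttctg
Rsad2 (returned), chr12:26456403-26456702, - strand: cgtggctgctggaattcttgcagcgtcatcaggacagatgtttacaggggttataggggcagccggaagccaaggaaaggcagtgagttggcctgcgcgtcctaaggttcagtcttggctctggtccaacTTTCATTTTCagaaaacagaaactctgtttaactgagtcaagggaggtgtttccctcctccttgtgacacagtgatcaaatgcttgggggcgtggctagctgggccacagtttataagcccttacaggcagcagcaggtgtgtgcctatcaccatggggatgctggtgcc
Ifih1 (short of WT), chr2:62646206-62646505, - strand: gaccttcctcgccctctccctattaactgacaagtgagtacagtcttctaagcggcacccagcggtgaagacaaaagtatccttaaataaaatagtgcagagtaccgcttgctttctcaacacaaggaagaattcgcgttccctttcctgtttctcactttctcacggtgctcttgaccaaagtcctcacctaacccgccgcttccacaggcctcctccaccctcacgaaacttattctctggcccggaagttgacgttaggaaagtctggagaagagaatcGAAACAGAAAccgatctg
Isg15 (acetate change not called), chr4:156200769-156201068, - strand: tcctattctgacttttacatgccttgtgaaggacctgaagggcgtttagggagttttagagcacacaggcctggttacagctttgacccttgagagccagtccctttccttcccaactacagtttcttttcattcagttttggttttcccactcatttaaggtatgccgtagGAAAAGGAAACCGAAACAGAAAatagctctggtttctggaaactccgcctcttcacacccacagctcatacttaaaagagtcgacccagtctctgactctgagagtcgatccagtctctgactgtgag
By place, the letters stood in 2 of 6 returned genes with a window, in 2 of 4 that stayed short and in 3 of 3 that kept their difference with no acetate change called. The windows of Irf9, Oasl2, Ifi44 and Xaf1 (returned) and of Irf7 and Herc6 (short) do not hold them.

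Cell cycle genes were mostly above WT with acetate. Of 30 S phase genes, which copy DNA and supply its building blocks, 25 were higher in ACLYKO + acetate than in WT (15.7% of all tested genes were). The other 5 did not pass, and the median difference was 1.35. Over all alternatives 19 to 28 were higher. In untreated ACLYKO 23 had been higher (12.7% of all tested genes were). Of the 30, 19 kept their difference with no acetate change called (6.85% of all tested genes did). Prim1, the small subunit of primase, read 143, 104 and 112 TPM in ACLYKO + acetate, 94.2, 74 and 70.7 TPM in untreated ACLYKO and 36.9, 24.4 and 28.5 TPM in WT (1.97 ± 0.22, limma adjusted p = 2.42e-05). Both ACLYKO groups lay above every WT library. With the block its acetate change was called too (limma adjusted p = 0.0338), which places it further from WT. Tyms, thymidylate synthase, was higher by 1.66 (limma adjusted p = 1.73e-05). Mcm3 and Mcm6, subunits of the replicative helicase, read 214 ± 35.9 and 167 ± 36 TPM in ACLYKO + acetate against 90.3 ± 12.7 and 64.1 ± 9.17 TPM in WT. Slbp, which binds histone mRNA, was the 1 member that returned, a place it lost without ACLYKO + acetate replicate 2 or 3 or WT replicate 2 or 3 (74.9 ± 8.4 TPM in ACLYKO + acetate, 107 ± 11.7 TPM in untreated ACLYKO and 75.7 ± 8.17 TPM in WT).

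Of 27 genes of G2 and M phase 25 were higher (15.7% of all tested genes were), with a median difference of 1.76, and all 27 with the block. In untreated ACLYKO 12 of the 27 were called higher than WT (12.7% of all tested genes were), 21 with the block and between 5 and 24 over all alternatives. The count of 25 was 12 without ACLYKO + acetate replicate 1, 13 without WT replicate 2 and 14 without WT replicate 3. Kif11, a motor of the mitotic spindle, had its highest library at replicate 1 in each group, with 123, 62.5 and 77.9 TPM in ACLYKO + acetate, 82.8, 52 and 47.3 TPM in untreated ACLYKO and 32.2, 12.9 and 16.5 TPM in WT (2.09 ± 0.41, limma adjusted p = 0.00203). Aurkb, a mitotic kinase, and Birc5, its partner survivin, were higher by 2.18 and 2.03 (limma adjusted p = 3.50e-04 and 0.00116). In bulk RNA more cells in these phases and more of these transcripts per cell cannot be told apart. Of 18 p53 target genes 5 were lower in ACLYKO + acetate than in WT (3.45% of all tested genes were), among them Ccng1, cyclin G1 (202 ± 12.8 TPM in ACLYKO + acetate, 359 ± 10.7 TPM in untreated ACLYKO and 344 ± 44.2 TPM in WT). With the block 11 of the 18 were lower, 8 with median-ratio scaling and 12 with the correction for GC content and length.

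In the same promoter windows the letters of an E2F site (TTTCCCGC, TTTGGCGC, TTTCGCGC or TTTGCCGC, either strand) stood in 9 of 23 S phase genes (39.1%), in 1 of 22 G2 and M phase genes (4.55%) and in 4.85% of all tested genes with a window. The NF-Y letters CCAATNNG stood in 63.6% of the G2 and M phase genes with a window, 47.8% of such S phase genes and 21.7% of all tested genes with a window. E2F factors drive the genes of S phase, and NF-Y binds CCAAT boxes of many mitotic genes. Windows of 3 S phase genes, again chosen from those with a match, are shown with the E2F letters in capitals.
Mcm3, chr1:20820263-20820562, - strand: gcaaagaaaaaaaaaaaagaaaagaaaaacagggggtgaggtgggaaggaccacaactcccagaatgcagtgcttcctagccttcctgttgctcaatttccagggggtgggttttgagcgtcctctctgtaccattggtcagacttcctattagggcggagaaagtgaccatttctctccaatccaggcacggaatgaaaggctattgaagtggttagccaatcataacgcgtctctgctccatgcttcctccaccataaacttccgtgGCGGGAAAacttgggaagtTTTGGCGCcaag
Mcm6, chr1:128359656-128359955, - strand: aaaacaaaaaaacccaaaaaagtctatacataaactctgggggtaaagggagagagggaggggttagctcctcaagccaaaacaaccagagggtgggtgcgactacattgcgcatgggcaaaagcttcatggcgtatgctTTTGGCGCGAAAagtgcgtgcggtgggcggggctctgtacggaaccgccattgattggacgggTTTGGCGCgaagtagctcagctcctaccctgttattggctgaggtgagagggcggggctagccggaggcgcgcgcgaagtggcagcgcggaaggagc
Cdc6 (loads the helicase onto DNA), chr11:98907901-98908200, + strand: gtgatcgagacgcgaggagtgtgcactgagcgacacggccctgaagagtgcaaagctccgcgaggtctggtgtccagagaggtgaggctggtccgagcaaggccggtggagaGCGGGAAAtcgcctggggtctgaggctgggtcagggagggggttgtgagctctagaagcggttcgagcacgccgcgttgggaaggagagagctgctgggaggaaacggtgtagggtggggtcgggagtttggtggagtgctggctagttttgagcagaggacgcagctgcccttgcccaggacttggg
All 3 genes were above WT in every ACLYKO + acetate library, with differences of 1.23, 1.36 and 1.49.

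Most tested MHC class II genes, which present antigen and are read mostly in other immune cells of the mouse, moved off WT with acetate. Of 9 tested members 8 rose in ACLYKO + acetate relative to WT (median difference 1.57), 6 of them placed as moved off. Of all tested genes 15.7% rose and 6.06% were placed as moved off. Over all alternatives 3 to 8 members rose, and the filter of 5 TPM, 1 of these, tests fewer members. The list summed to 260 to 393 TPM in ACLYKO + acetate and 77.3 to 83.0 TPM in WT. In untreated ACLYKO the sum was already above WT, at 218 to 626 TPM. H2-Oa, part of the H2-O complex that tempers peptide loading, read 50.9, 67.9 and 60.7 TPM in ACLYKO + acetate, 3.06, 28.1 and 22.8 TPM in untreated ACLYKO and 7.51, 10.6 and 7.59 TPM in WT (2.68 ± 0.50, limma adjusted p = 0.00126). With the block its acetate change was not called (limma adjusted p = 0.058). Cd74, the invariant chain, was above WT in both ACLYKO groups and, without ACLYKO replicate 1, counted as short of WT (172, 267 and 240.5 TPM in ACLYKO + acetate, 211, 461 and 592 TPM in untreated ACLYKO and 36.9, 29.5 and 34.5 TPM in WT). H2-Ab1 went the other way, with 21.4, 26.9 and 24.1 TPM in ACLYKO + acetate, 2.18, 3.23 and 3.83 TPM in untreated ACLYKO and 30.7, 38.1 and 35.7 TPM in WT, so that it was lowest without acetate and all its ACLYKO + acetate libraries were below WT. It counts as returned (limma adjusted p = 0.0981 against WT), while with the block (0.00251) and 5 other alternatives it was called lower than WT.

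B cell markers, 8 genes of which 3 were tested and 1 (Cd79b) was higher, summed to 28.7 to 35.6 TPM in ACLYKO + acetate, 9.29 to 14.1 TPM in untreated ACLYKO and 15.6 to 23.6 TPM in WT. Cd79b was only part of this sum. The other tested members, Ighm and Ebf1, were not called against WT (limma adjusted p = 0.265 and 0.333), and Ighm was called higher in 3 of 19 alternatives. Cd79b, a chain of the B cell receptor, read 3.96, 5.1 and 3.77 TPM in ACLYKO + acetate against 0.102, 0.295 and 0.462 TPM in WT, whereas Ms4a1 and Pax5, which define B cells, stayed at or under 0.0328 TPM in these 2 groups. Their part in the MHC class II result was not tested. Myeloid and dendritic markers, 11 genes with 1 tested and higher, summed to 6.45 to 8.31 TPM in ACLYKO + acetate, 4.40 to 9.76 TPM in untreated ACLYKO and 1.59 to 2.94 TPM in WT, nearly all of it Cd68, and C1qa, C1qb and Siglech were at 0 in all 6 libraries.

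Among genes of cytosolic acetyl-CoA supply, Acss2 was above WT in both ACLYKO groups, with 8.27, 7.2 and 7.32 TPM in ACLYKO + acetate, 4.71, 8.13 and 6.72 TPM in untreated ACLYKO and 3.18, 2.28 and 2.99 TPM in WT (1.18 ± 0.19, limma adjusted p = 4.58e-04). Acss1 moved off WT only with acetate, at 2.39, 2.47 and 2.55 TPM in ACLYKO + acetate, 0.55, 0.595 and 0.562 TPM in untreated ACLYKO and 0.556, 0.43 and 0.633 TPM in WT (1.17 ± 0.15, limma adjusted p = 5.07e-05). The acetate libraries lay above all others, at low levels throughout. Slc2a1 and Slc2a3, the glucose transporters GLUT1 and GLUT3, were not called against WT (0.13 and 0.20, limma adjusted p = 0.853 and 0.746).

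Part of the sterol genes stayed above WT. Of 24 genes of cholesterol synthesis and uptake 9 rose in ACLYKO + acetate relative to WT (15 with the block), and 7 kept their difference with no acetate change called. The shares of all tested genes in the main fit were 15.7% and 6.85%. Stard4, a sterol carrier, read 26.6, 34.3 and 33.1 TPM in ACLYKO + acetate, 21.9, 32.1 and 30.4 TPM in untreated ACLYKO and 11.1, 12.5 and 12.8 TPM in WT (1.30 ± 0.17, limma adjusted p = 7.39e-05). Both ACLYKO groups were above WT and overlapped each other, as for Cyp51, lanosterol demethylase (0.81). Hmgcs1 and Sqle, other enzymes of the pathway, were not called (0.18 and 0.0033, limma adjusted p = 0.466 and 0.997).

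Targets of the oxysterol receptors LXR did otherwise. Of 9 tested members 5 were lower in untreated ACLYKO than in WT (6.38% of all tested genes were), 3 of them without WT replicate 2. With acetate 5 of the 9 returned (4.34% of all tested genes did). In the main fit the only one called against WT was Abca1, the cholesterol exporter, which was lower in ACLYKO + acetate. It read 6.39, 5.73 and 6.24 TPM in ACLYKO + acetate, 7.13, 9.58 and 8.5 TPM in untreated ACLYKO and 19.2, 16.2 and 16.9 TPM in WT (-1.37 ± 0.15, limma adjusted p = 1.44e-05). Scd1, a fatty acid desaturase, returned in every alternative, with 17, 9.59 and 9.56 TPM in ACLYKO + acetate, 4.01, 5.13 and 4.66 TPM in untreated ACLYKO and 13, 9.75 and 12 TPM in WT (1.18 ± 0.24, limma adjusted p = 0.00339 for acetate). Mylip, which degrades the LDL receptor, returned from above (2.6 ± 0.9 TPM in ACLYKO + acetate, 5.53 ± 0.378 TPM in untreated ACLYKO and 2.77 ± 0.505 TPM in WT). The returns of Abcg1, Scd2 and Apoe were lost without any 1 of the 3 ACLYKO + acetate libraries, where their intervals passed 1 or a call was missed. With the block Scd2 was called higher than WT (limma adjusted p = 0.0321). Plin2, which coats lipid droplets, also returned in every alternative, with 17.3, 18.2 and 16.7 TPM in ACLYKO + acetate, 0.627, 1.9 and 1.91 TPM in untreated ACLYKO and 15.1, 18.1 and 23 TPM in WT (2.94 ± 0.21, limma adjusted p = 5.16e-07 for acetate).

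Of 14 tested genes of fatty acid synthesis and desaturation 4 rose in ACLYKO + acetate relative to WT (8 with the block), against 15.7% of all tested genes in the main fit. Fads2, a desaturase of polyunsaturated fatty acids, and Elovl5, an elongase, were above WT with and without acetate (1.92 and 1.24, limma adjusted p = 2.56e-04 and 1.50e-04). Elovl6, the elongase that makes stearate, moved past WT, with 4.89, 4.02 and 4.25 TPM in ACLYKO + acetate, 1.16, 0.777 and 0.679 TPM in untreated ACLYKO and 2.52, 2.56 and 2.15 TPM in WT. With quantile normalization it counted as returned. Of 51 nuclear-encoded genes of the respiratory chain 0 passed in limma against WT (19.2% of all tested genes did), with 2 at an unadjusted p under 0.05 and 0 with voom on recovered reads. With the block 13 were higher and 5 lower.

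**Figure D4:**
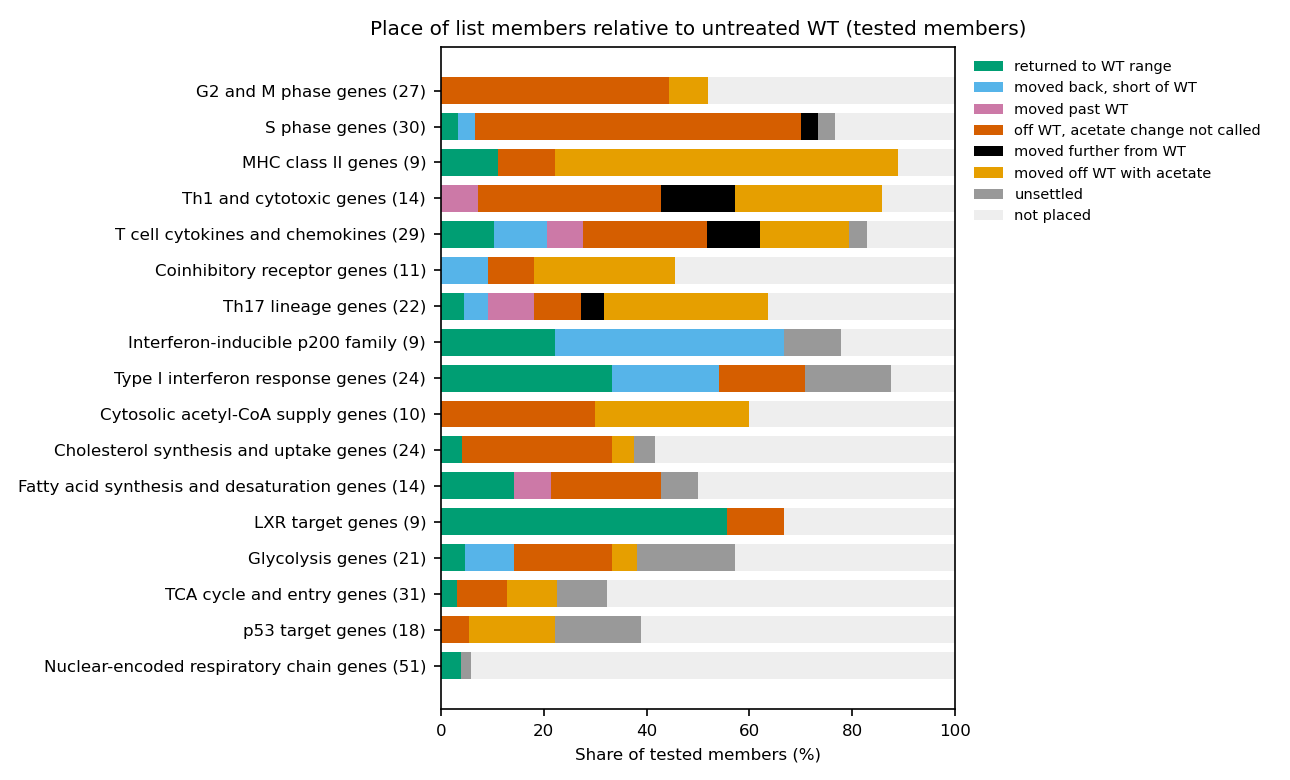
Share of tested members (horizontal, %) of 17 gene lists by place relative to untreated WT, with the number of tested members in brackets. LXR targets and interferon-response genes hold the most returned members, S phase genes the most that stayed off WT with no acetate change called, and MHC class II genes the most that moved off WT with acetate.

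Outside the lists, several genes were not called different between untreated ACLYKO and WT and left the WT level with acetate. Tff1, which encodes the secreted trefoil factor 1, read 67.9, 113 and 122 TPM in ACLYKO + acetate, 2.54, 4.05 and 3.94 TPM in untreated ACLYKO and 2.83, 8.78 and 8.92 TPM in WT (3.78 ± 0.50, limma adjusted p = 8.32e-05). Galm, galactose mutarotase, read 66.9, 61 and 63.6 TPM in ACLYKO + acetate, 2.7, 12.5 and 9.3 TPM in untreated ACLYKO and 6.94, 7.18 and 7.63 TPM in WT (2.97 ± 0.34, limma adjusted p = 2.79e-05). In WT cultures given acetate Tff1 read 33.9, 34.7 and 36.7 TPM and Galm 25.4, 24.7 and 26.4 TPM, between untreated WT and ACLYKO + acetate. Foxs1, a forkhead factor, and Rcn3, an ER calcium-binding protein, were higher by 2.88 and 2.75, with 1.15, 1.22 and 2.5 and 12.9, 10.1 and 12.9 TPM in WT cultures given acetate.

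In the other direction Try5, a trypsinogen gene, read 1.71, 2.67 and 1.88 TPM in ACLYKO + acetate, 25.9, 36.1 and 43.3 TPM in untreated ACLYKO and 24.3, 25.4 and 31.2 TPM in WT (-3.19 ± 0.24, limma adjusted p = 5.87e-07), and 2.12, 3.88 and 3.07 TPM in WT cultures given acetate. Both groups with acetate lay far below both without. Its neighbour Try4 was as low with acetate (1.2 ± 0.123 TPM in ACLYKO + acetate, 23.4 ± 1.85 TPM in untreated ACLYKO and 14.7 ± 5.77 TPM in WT), and since trypsinogen genes resemble each other in sequence the split of reads between them is uncertain.

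Several genes that moved further from WT rose in steps. Serpinc1, antithrombin, had the largest rise of all genes named by the rule, with 42.8, 72.9 and 60.0 TPM in ACLYKO + acetate, 6.61, 29.1 and 21.3 TPM in untreated ACLYKO and 0.723, 0.7 and 1.23 TPM in WT (4.96 ± 0.37, limma adjusted p = 5.87e-07). S100a4, a calcium-binding protein of motile cells, read 238, 177 and 173 TPM in ACLYKO + acetate, 40.0, 36.9 and 18.8 TPM in untreated ACLYKO and 8.37, 9.42 and 12.8 TPM in WT (4.14 ± 0.29, limma adjusted p = 4.05e-07). Cd5l read 259.6, 231 and 272 TPM in ACLYKO + acetate, 66, 111 and 101 TPM in untreated ACLYKO and 15.2, 22.4 and 24.7 TPM in WT (3.58 ± 0.27, limma adjusted p = 5.87e-07). It is known in Th17 cells as a brake on their inflammatory programme that alters their lipids. Fscn1, an actin-bundling protein, and Olfml2a rose by 4.03 and 3.06. None of these 5 had overlapping libraries between any pair of the 3 groups.

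Genes that stayed short of WT from below included Upp1, uridine phosphorylase, with 8.92, 10.1 and 11.6 TPM in ACLYKO + acetate, 0.924, 3.69 and 3.42 TPM in untreated ACLYKO and 69.6, 76.5 and 66.9 TPM in WT (-2.69 ± 0.26, limma adjusted p = 6.42e-06). Serpinf1, the secreted factor PEDF, read 21.8, 14.8 and 18.2 TPM in ACLYKO + acetate, 1.24, 2.86 and 2.7 TPM in untreated ACLYKO and 67.9, 55.6 and 48.9 TPM in WT (-1.60 ± 0.22, limma adjusted p = 1.34e-04). Selenbp1, a methanethiol oxidase, and Aldoc, the brain form of aldolase, did the same (-2.02 and -1.24 against WT). These 4 genes kept their place in every alternative. Serpini1, the serpin neuroserpin, stayed short from above (6.23 ± 0.396 TPM in ACLYKO + acetate, 20.1 ± 2.74 TPM in untreated ACLYKO and 1.3 ± 0.32 TPM in WT).

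Vcam1, an adhesion molecule, and Il1rn, the interleukin-1 receptor antagonist, stayed above WT with no acetate change called (-0.21 and 0.092, limma adjusted p = 0.437 and 0.851). Vcam1 read 11.5, 8.02 and 8.49 TPM in ACLYKO + acetate, 11.2, 11.5 and 9.82 TPM in untreated ACLYKO and 0.147, 0.454 and 0.544 TPM in WT (2.90 ± 0.17, limma adjusted p = 7.62e-08). Il1rn read 48.7, 42.4 and 45.7 TPM in ACLYKO + acetate, 53.5, 42.4 and 34.2 TPM in untreated ACLYKO and 8.55, 3.27 and 3.67 TPM in WT (3.02 ± 0.28, limma adjusted p = 4.94e-06). Stat4, which carries the interleukin-12 signal, moved past WT in every alternative, with 54.7, 46.1 and 42.8 TPM in ACLYKO + acetate, 7.63, 12.3 and 9.28 TPM in untreated ACLYKO and 26.9, 19.5 and 21.9 TPM in WT (1.05 ± 0.23, limma adjusted p = 0.00386). Returned genes outside the lists included Ina, an intermediate filament gene of neurons (0.549 ± 0.321 TPM in ACLYKO + acetate, 5.88 ± 0.494 TPM in untreated ACLYKO and 0.432 ± 0.066 TPM in WT), and Timp1, an inhibitor of matrix metalloproteinases (54 ± 11.6 TPM in ACLYKO + acetate, 13.1 ± 5.64 TPM in untreated ACLYKO and 56.3 ± 5.85 TPM in WT).

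Acetate was also given to GLUT3KO cultures (Slc2a3-fl/fl Cd4-cre, in which the glucose transporter gene is deleted, 3 libraries), and in the difference between both acetate-treated knockouts the WT libraries cancel. ACLYKO + acetate differed from GLUT3KO + acetate at 37.7% of tested genes, 20% higher and 17.7% lower (limma). Il22 was almost unread in the ACLYKO group, with 0.428, 1.3 and 0.847 TPM in ACLYKO + acetate against 34.9, 57 and 52.2 TPM in GLUT3KO + acetate. Il2 went the other way, with 13639 ± 4959 TPM in ACLYKO + acetate and 2409 ± 53.3 TPM in GLUT3KO + acetate. Il17a, level with untreated WT in ACLYKO + acetate, read 1456, 1393 and 1616 TPM in GLUT3KO + acetate, and Ifng read 1515, 2546 and 2956 TPM there. Of the type I interferon response genes, Ifit1 read 0.222, 0.224 and 0.132 TPM in ACLYKO + acetate and 0.0627, 0.082 and 0.126 TPM in GLUT3KO + acetate.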

How the data were processed

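The authors deposited 1 table of TPM values per gene and library (listed under the unit other because of decimal commas), and the whole table of 45703 genes and 18 libraries was used. Per the submitters' processing notes the tools included STAR 2.7.2b and featureCounts 1.6.4, besides cutadapt, bcl2fastq and DESeq2, and the build was GRCm38.p6; their roles are not given. Per the labels' protocols, stranded mRNA libraries were read single-end. TPM fixes the total of each library, so a few strong genes shift all others, and the scalings tried bear on this. Whole reads were recovered from the deposited values (100% of genes under 500 reads within 0.01 of a whole number), which gave depth and the voom alternative, by which 2610 genes differed between ACLYKO + acetate and WT.

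Genes were tested on log2(TPM + 1) with limma 3.58.1 in R 4.3.3 (group means over all 18 libraries, trended and robust eBayes, two-sided, Benjamini-Hochberg over 14229 genes, threshold 0.05), after a check on simulated data. The simulated libraries were drawn independently, with no effect shared by replicate number and no outlying library, so the check does not bear on these. Adjusted p-values in the text come from the limma fit or its stated alternative. An exact permutation test of 3 against 3 cannot go below p = 0.1 and was not used. Deviations from group means correlated at 0.801, 0.608 and 0.442 between same-numbered ACLYKO + acetate and WT libraries, all over 0.1. The numbers were therefore fitted as blocks in an alternative, while the main fit holds no block. Blocked values are given for some of the calls that they change. ACLYKO + acetate replicate 2 correlated at 0.612 with WT replicate 3, and replicate 3 at 0.475 with WT replicate 2, so only replicate 1 stood apart by its number.

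Members and gene lists were chosen with earlier results of these data known. The rule for naming took 13 fixed genes, the 15 largest rises and falls with libraries that do not overlap, up to 10 genes per place, and up to 5 list members by adjusted p in each of 2 comparisons. Hmgcs1, Sqle, Slbp, Oasl2, Mcm3, Mcm6 and Ifnb1 were named after their values were seen. Sequences are from RefSeq promoter windows. Some items are not reported here.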

Additional observations from a re-analysis of the deposited data

Results flagged for a closer look

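Among the fixed genes of the naming rule, 11 differed in their difference from WT between ACLYKO + acetate and GLUT3KO + acetate. The other fixed genes, Il10 and Csf2, were not flagged. The test in limma was ACLYKO + acetate minus GLUT3KO + acetate, in which WT cancels. Of all tested genes 37.7% were called by it, so a call is not special to these genes. The targeted gene Acly was lower by this test (log2 difference -6.02, adjusted p = 1.36e-10), and Slc2a3, the gene targeted in GLUT3KO, was higher (0.90, adjusted p = 0.0194). Of the transport and acetyl-CoA genes, Slc2a1 was lower (-0.83, adjusted p = 0.0259) and Acss1 (0.84, adjusted p = 3.32e-04) and Acss2 (1.13, adjusted p = 2.97e-04) were higher. Of the cytokine genes, Il17a (-1.20, adjusted p = 0.0243), Il17f (-1.32, adjusted p = 2.85e-04), Il21 (-1.93, adjusted p = 5.29e-06), Il22 (-4.72, adjusted p = 1.10e-07) and Ifng (-2.86, adjusted p = 2.34e-05) were lower in ACLYKO + acetate than in GLUT3KO + acetate. Il2 was higher (2.42, adjusted p = 3.04e-05). All adjusted p-values are from limma. The 3 libraries of a group were too few for a test of single libraries against their group.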

How the results depend on the processing

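All 18 libraries shared 1 fit, and 19 alternatives were run on ACLYKO + acetate against WT and 3 more, leaving out each untreated ACLYKO library, on the placement. The count of 2727 genes became 7491 with array weights, 5354 with the first axis within groups as a covariate, 6224 with the replicate block (pairing by number, 4349 higher and 1875 lower) and 1191 with a log2 change of at least 1, and it lay between 1996 and 2559 when 1 library was left out. The first axis and the correction for GC content and exon length were chosen after seeing the data. Array weights gave ACLYKO replicate 1 a weight of 0.0273 and were estimated gene by gene, since the default method did not converge. The share of higher genes, 82.0%, was 73.2% with the axis and 69.9% with the block (array weights gave 5170 higher and 2321 lower), and the median of all genes moved to -0.00032 after median-ratio scaling, to -0.072 after quantile normalization and to -0.075 after correcting for GC content and length.

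The placement moved more. Leaving out 1 library gave 402 to 832 returned genes, 60 to 222 short, 28 to 145 past, 602 to 1577 off WT with no acetate change called, 81 to 218 further and 627 to 1101 moved off. In the same order array weights gave 1847, 858, 495, 2508, 672 and 1967, and the axis gave 2589, 667, 483, 1733, 438 and 1561. Without replicate 1 of each group compared there were 1174 returned, 274 short, 160 past, 1702 with no acetate change called and 256 further. Fitting only the groups compared gave 185, 27, 13, 467, 28 and 464 in the first order. The replicate block gave 57 short, 31 past, 70 further and 570 moved off. With a filter of 5 TPM 81 were short, 80 further and 500 moved off, with fewer genes tested, and the GC and length correction gave 128 past. Elsewhere the cause was not tested.

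Of 207 genes named by the rule and tested, 161 were called against WT, 115 of them in every alternative, and 46 lost the call in at least 1. Of the 46 not called 23 gained it in at least 1. With the block 0 lost the call and 17 gained it, and no named gene changed direction while called. Depth limits genes at a few reads, among them Ifit1 and Rsad2.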

Other observations

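Of all genes tested, 15.7% were higher in ACLYKO + acetate than in WT and 3.45% were lower, and a share near these is not a result on a list. Of 11 coinhibitory receptor genes 6 rose in ACLYKO + acetate relative to WT and 1 fell, and with any 1 of the 6 libraries left out 3 or 4 rose. Of 17 regulatory T cell genes 4 rose and 2 fell (8 and 2 with the replicate block), and 2 rose without ACLYKO + acetate replicate 1 or without WT replicate 2 or 3. Of 16 genes of MHC class I antigen presentation 4 rose and 1 fell, and 1 or 2 rose without ACLYKO + acetate replicate 2 or 3 or without WT replicate 1 or 2. Of 10 tested genes of cytosolic acetyl-CoA supply 5 rose and 1, Acly, fell, and 2 or 3 rose without ACLYKO + acetate replicate 2 or 3 or without WT replicate 2 or 3.

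In carbon metabolism 7 of 21 glycolysis genes rose and 1 fell (12 and 4 with the block), against 15.7% and 3.45% of all tested genes in the main fit. Without ACLYKO + acetate replicate 1 or without WT replicate 2 or 3, 4 glycolysis genes rose. Of the mitochondrial genes 8 of 31 genes of the TCA cycle and its entry rose (13 with the block and 5 without WT replicate 2), against 15.7% of all tested genes in the main fit. Of 31 genes of ribosome biogenesis and MYC targets 30 were tested, 2 rose and 1 fell. Of 22 genes of the unfolded protein response 0 rose and 1 fell. Of 24 genes of amino acid transport and ATF4 targets 1 rose and 1 fell. These counts moved with the processing. Over the alternatives up to 8 ribosome biogenesis and MYC genes rose and up to 4 fell. For the unfolded protein response up to 9 rose and up to 4 fell, and for the amino acid and ATF4 genes up to 10 and up to 7.

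Other cell types were read as follows. CD8 genes summed to 15.4 to 17.7 TPM in ACLYKO + acetate, 3.98 to 8.71 TPM in untreated ACLYKO and 11.6 to 13.0 TPM in WT. Neutrophil and mast cell genes summed to at most 0.776 TPM and erythroid and platelet genes to at most 1.99 TPM in these groups. Xist, the female-specific transcript, read 17.9, 13 and 17 TPM in ACLYKO + acetate and 14.5, 7.5 and 7.84 TPM in WT, and the Y-linked gene Ddx3y read 53.8, 30.7 and 32.3 TPM in ACLYKO + acetate and 66, 43.2 and 29.6 TPM in WT. Both were read in each of these libraries.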
